A study of Mus musculus with 6 samples.

Results

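The genes described here are 10 genes that mark the zones of the liver lobule or respond to Wnt signalling there, measured in livers of Nrf2 knockout and wild-type mice. They were chosen by name. The pericentral genes were Glul, Slc1a2, Rhbg, Lgr5, Axin2 and Tbx3, and the periportal genes were Gls2, Hal, Sds and Cdh1. A probe set counted as a member when the array annotation gave it exactly 1 gene symbol from this list. This held for 19 of 45037 probe sets, standing for 8 of the 10 genes. No probe set carried Gls2 or Sds as its single name here, so both were not analysed here and the periportal side rests on Hal and Cdh1. Each of the 8 genes had at least 1 of 12 probe sets bright enough to be tested, and the other 7 probe sets lay under the filter on dim values.

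The tested livers came from Nrf2 knockout mice (labelled Nrf2 ko) and were set against livers of wild-type mice (labelled Nrf2 wt), both on the strain background C57B/SV129 and both labelled as 10 weeks old. Each genotype had 3 one-colour Affymetrix arrays, and each array held liver RNA pooled from 3 animals, so that spread between arrays is spread between pools and the spread between animals is hidden. The labels name no injury, diet or treatment, and they do not give the sex of the animals, how the allele was made or whether pools shared animals. In bulk liver, fewer cells of a zone and less RNA per cell cannot be told apart.

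Blood enters the liver lobule beside the portal tracts and leaves through the central vein, and hepatocytes along this path carry out different tasks. Wnt ligands and R-spondins from endothelial cells of the central vein activate beta-catenin in the hepatocytes around it. There, beta-catenin with TCF factors maintains a pericentral programme that takes up ammonium and glutamate and makes glutamine. Hepatocytes around the portal tract instead release ammonium from amino acids and turn it into urea. Nfe2l2 codes for Nrf2, which switches on genes of detoxification and antioxidant defence.

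Annotated gene starts were listed for 4 of the 10 genes, and their promoters are shown because they cover the main pericentral pair, a general Wnt target and the periportal gene with the largest difference. Each stretch runs from 250 bases before the gene start to 50 bases after it, is 300 bases long, lies on the plus strand of build GRCm38.p6 and is credited to RefSeq. They lie at chr1:153899679-153899978 for Glul, chr2:102706188-102706487 for Slc1a2, chr11:108920099-108920398 for Axin2 and chr10:93488518-93488817 for Hal. Capitals mark matches, on either strand, to a TCF/LEF core spelled CTTTGA or to an antioxidant response element core spelled TGACNNNGC, the site type bound by Nrf2.
Glul: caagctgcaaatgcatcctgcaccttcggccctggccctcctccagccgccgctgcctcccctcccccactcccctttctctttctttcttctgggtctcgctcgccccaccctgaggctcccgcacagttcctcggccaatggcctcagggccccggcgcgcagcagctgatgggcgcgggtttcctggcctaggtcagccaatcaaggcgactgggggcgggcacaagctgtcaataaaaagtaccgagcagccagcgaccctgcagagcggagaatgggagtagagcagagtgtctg
Slc1a2: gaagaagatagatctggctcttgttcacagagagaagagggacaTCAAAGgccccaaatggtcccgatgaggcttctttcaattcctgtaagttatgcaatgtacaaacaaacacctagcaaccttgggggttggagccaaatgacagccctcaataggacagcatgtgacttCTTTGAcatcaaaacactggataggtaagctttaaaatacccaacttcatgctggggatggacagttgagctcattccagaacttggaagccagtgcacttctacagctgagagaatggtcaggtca
Axin2: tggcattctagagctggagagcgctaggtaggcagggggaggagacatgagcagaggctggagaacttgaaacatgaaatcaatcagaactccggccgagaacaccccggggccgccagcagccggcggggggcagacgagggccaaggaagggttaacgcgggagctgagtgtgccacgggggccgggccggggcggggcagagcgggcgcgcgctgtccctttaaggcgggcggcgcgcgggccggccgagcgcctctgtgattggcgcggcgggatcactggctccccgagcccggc
Hal: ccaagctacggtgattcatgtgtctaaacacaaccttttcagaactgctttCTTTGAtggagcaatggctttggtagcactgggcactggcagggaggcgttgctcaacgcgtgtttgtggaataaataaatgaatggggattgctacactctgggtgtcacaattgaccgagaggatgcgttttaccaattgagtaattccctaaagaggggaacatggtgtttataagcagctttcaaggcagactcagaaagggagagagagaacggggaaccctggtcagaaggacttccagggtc
The Slc1a2 stretch holds the TCF/LEF core at positions 45 to 50, on the opposite strand, and at positions 174 to 179, counted from 1 at its 5′ end. The Hal stretch holds it at positions 52 to 57. No match to either motif lies in the Glul or Axin2 stretch, and none of the 4 holds the antioxidant core. Of 32851 promoter stretches of the same length, 16% hold the TCF/LEF core and 12.4% hold the antioxidant core, and the motifs do not overlap each other in the members. A match describes letters only, and no binding was measured.

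The arrays matched their genotype labels at the brighter probe set of the targeted gene. Signal of Nfe2l2 there was 5.74, 7.40 and 6.90 in knockout livers, against 696, 598 and 625 in wild-type livers. Its dimmer tested probe set showed no loss, at 25.1, 27.9 and 24.4 in knockout livers, against 34.4, 20.2 and 22.3 in wild-type livers (limma adjusted p = 0.925). Over the whole table, 16 of 11102 genes passed a limma adjusted p of 0.05, which is 0.144%, with 0.036% higher and 0.108% lower in the knockout. The 2% trimmed mean intensity lay between 91.9 and 131. The ratio of 3′ to 5′ actin signal, a sign of RNA integrity, averaged 1.97 ± 0.0319 in knockout pools, against 1.86 ± 0.083 in wild-type pools (SD, n = 3 each, exact two-sided permutation p = 0.1, the smallest that 3 against 3 can give). Its part in the results below was not tested. Hepatocyte markers had 6 genes with a probe set, none at an intensity under 1700, so the label of liver holds. Intensities below are as deposited, on a linear scale, and log2 differences are knockout minus wild type after quantile normalization of log2(intensity + 5.26), so these scales can differ in direction.

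None of the 8 zonation genes differed between the genotypes past the limma threshold. Of the pericentral genes, 5 of 6 had lower mean normalized values in the knockout, the exception being Lgr5. Both periportal genes had higher ones, though the mean deposited intensity of Cdh1 was 1320 in the knockout, against 1330 in the wild type. At their brightest probe sets the pericentral genes had a median log2 difference of -0.28 and the periportal pair a mean of 0.31, beside a median of 0.01 over all 11102 genes, of which 48.6% were lower. The size of both values, though not the sign, moved when single pools were left out. The pericentral median was -0.47, -0.15 and -0.13 without knockout pools 1, 2 and 3. It was -0.36, -0.15 and -0.39 without wild-type pools 1, 2 and 3. The periportal mean was 0.12 and 0.51 without knockout pools 2 and 3, and 0.28 to 0.38 without any other pool. An unadjusted p under 0.05 was reached by 0 of 8 genes at the brightest probe set, where 8.22% of all genes reached it, 4.07% higher and 4.15% lower. With array weights or the replicate block, 1 pericentral gene, lower, and 1 periportal gene, higher, reached it. The mean of probe sets gave 1 pericentral gene, lower. Without knockout pool 3, 2 pericentral genes, lower, and 1 periportal gene, higher, did. In these settings 421 to 604 of all genes were higher at that p and 487 to 555 lower. The groups of 3 overlapped for all 8 genes, and did not overlap for 13.9% of all genes, 6.55% with the knockout lower. Adjusted p-values of the 12 tested probe sets ran from 0.600 to 0.987.

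**Figure D1:**
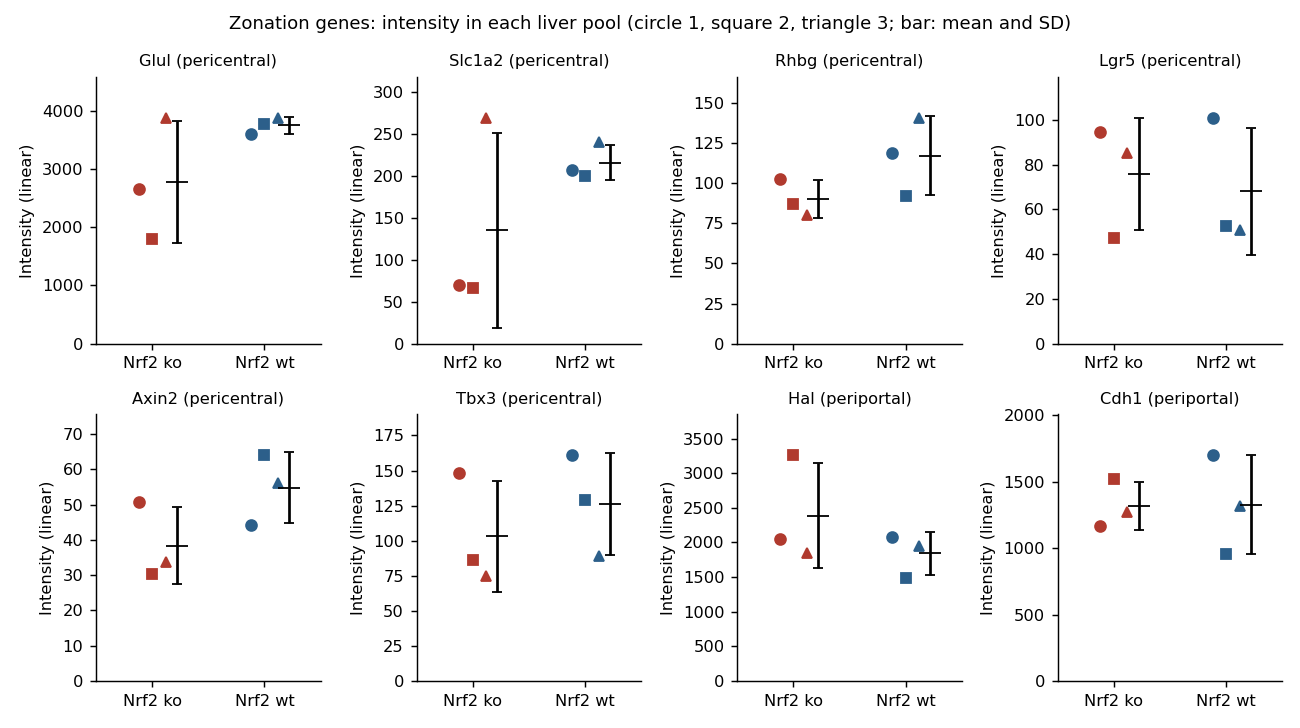
Deposited linear intensity (vertical axis, starting at 0) of the brightest probe set of each zonation gene in the 3 knockout pools, left, and the 3 wild-type pools, right. Symbols give the pool number and bars the mean and SD. Slc1a2 shows 2 knockout pools at 69.3 and 66.7 and knockout pool 3 at 269, above the wild-type values of 200 to 240.

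Glul encodes glutamine synthetase, which in liver is confined to a thin sleeve of hepatocytes around the central vein and captures the ammonium that escaped urea synthesis. Its brightest probe set, 1426236_a_at, read 2660, 1790 and 3880 in the knockout pools, against 3600, 3770 and 3880 in the wild-type pools. Knockout pool 2 was the lowest and knockout pool 3 stood among the wild-type pools. The log2 difference was -0.35 ± 0.21 (SE, n = 3 per genotype), 1.27-fold lower, with a limma adjusted p of 0.745 and a 95% interval from -0.82 to 0.13. The second Glul probe set, 1426235_a_at, read 1230, 718 and 1370 in the knockout, against 1760, 1260 and 1770 in the wild type. After normalization its groups did not overlap, at 10.53, 9.61 and 10.28 in knockout pools, against 10.55, 10.53 and 10.56 in wild-type pools, on the log2 scale. That gap was narrow for knockout pool 1, and the difference of -0.41 ± 0.20 did not pass (adjusted p = 0.688). Groups of 3 did not overlap for 13.4% of all probe sets, 6.57% with the knockout lower.

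Slc1a2 encodes GLT-1, the glutamate transporter with which pericentral hepatocytes take up the substrate of glutamine synthetase. It had the largest difference among the members, and the knockout pools disagreed. At the brightest probe set, 1438194_at, the intensities were 69.3, 66.7 and 269 in the knockout pools, against 207, 200 and 240 in the wild-type pools. Knockout pools 1 and 2 lay far under every wild-type pool, while pool 3 lay above them all. The log2 difference was -0.83 ± 0.40 (SE, n = 3 per genotype), 1.77-fold lower, with a limma adjusted p of 0.682 and a 95% interval from -1.73 to 0.08. The SD between knockout pools was 0.94 on the log2 scale, which is at or above that of 98.9% of tested genes, against 0.23 between wild-type pools.

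The other tested Slc1a2 probe sets were also lower in the knockout on average. Probe set 1439940_at read 9.91, 15.5 and 42.2 in the knockout, against 47, 37 and 49.6 in the wild type. After normalization its groups did not overlap, and the difference of -0.91 ± 0.34 had an unadjusted p of 0.0252 and an adjusted p of 0.600. It was the single member probe set of the 12 tested with an unadjusted p under 0.05, where 7.63% of all probe sets reached that value and 0.142% passed the adjusted threshold. Probe set 1451627_a_at read 53.5, 62.6 and 89.8 in the knockout, against 106, 99.6 and 83.4 in the wild type, a difference of -0.35 ± 0.20. In all 3 probe sets, knockout pool 3 was the brightest of the knockout pools. Without knockout pool 3, the difference at the brightest probe set was -1.37 and passed, with a limma adjusted p of 0.0334. Without knockout pool 2 it was -0.52, with an adjusted p of 0.933.

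Rhbg encodes an ammonium transporter of the Rhesus family that sits in the same pericentral hepatocytes. It read 103, 87.4 and 80.3 in the knockout pools, against 119, 92.3 and 141 in the wild-type pools. The groups overlapped, and the log2 difference was -0.21 ± 0.18 (adjusted p = 0.832). Unlike Glul and Slc1a2, its knockout pool 3 was the lowest of the 6 arrays.

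The Wnt pathway members were dim and scattered. Axin2, a scaffold of the beta-catenin destruction complex and a widely used readout of Wnt signalling, read 50.8, 30.3 and 33.8 in the knockout pools, against 44.1, 64 and 56.2 in the wild-type pools. Knockout pools 2 and 3 were under all wild-type pools, knockout pool 1 was not, and the log2 difference was -0.35 ± 0.30 (adjusted p = 0.824). A second Axin2 probe set under the filter read 7.23, 8.90 and 5.66 in knockout pools, against 13, 13.8 and 11.4 in wild-type pools, with a difference of -0.45 ± 0.30 in the fit over all probe sets (adjusted p = 0.856). Before normalization these dim intensities did not overlap, and after it they did.

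Tbx3, a T-box transcription factor and beta-catenin target in liver, read 148, 86.5 and 74.5 in the knockout pools, against 161, 129 and 88.8 in the wild-type pools. Its log2 difference was -0.16 ± 0.34 (adjusted p = 0.950), and it turned to 0.12 without knockout pool 3 and to 0.03 without wild-type pool 2. A second tested Tbx3 probe set was at -0.04 ± 0.37. Lgr5, an R-spondin receptor expressed by pericentral hepatocytes, read 94.7, 47.3 and 85.4 in the knockout pools, against 101, 52.5 and 50.6 in the wild-type pools. Each group held both a high and a low pool, and the log2 difference was 0.29 ± 0.30 (adjusted p = 0.864). The 7 member probe sets under the filter, of Slc1a2, Lgr5, Axin2 and Tbx3, had intensities from 0.475 to 18.7. In the fit over all probe sets their lowest adjusted p was 0.856.

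Hal encodes histidine ammonia-lyase, which opens the breakdown of histidine and releases ammonium in periportal hepatocytes. It read 2050, 3260 and 1850 in the knockout pools, against 2080, 1490 and 1950 in the wild-type pools. Knockout pool 2, the pool with the least Glul, was the highest. After normalization the knockout pools were at 11.24, 11.72 and 10.70 with an SD of 0.51, against 10.81, 10.78 and 10.71 with an SD of 0.05 in the wild-type pools. The log2 difference was 0.46 ± 0.21, 1.37-fold higher, with an adjusted p of 0.671. It was 0.20 without knockout pool 2 and 0.73 without knockout pool 3 (adjusted p = 0.927 and 0.154).

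Cdh1 encodes E-cadherin, the epithelial adhesion protein, found in periportal hepatocytes and in bile duct cells. It read 1170, 1520 and 1270 in the knockout pools, against 1700, 956 and 1320 in the wild-type pools. The groups overlapped widely, the log2 difference was 0.17 ± 0.15 (adjusted p = 0.831), and it was 0.04 without knockout pool 2. Of 10 bile duct markers, 7 had a probe set, and their summed intensity was 77.8 to 163 in knockout pools and 98.9 to 150 in wild-type pools, with knockout pool 2 at 163. The single markers did not move one way, and those given here were chosen after their values were seen. Krt19, a bile duct keratin gene, read 11.3, 11.8 and 9.71 in knockout pools, against 19.5, 15 and 5.97 in wild-type pools. Krt7 read 1.32, 6.19 and 1.03 in knockout pools, against 11, 13.4 and 11.5 in wild-type pools, groups that did not overlap, with an adjusted p of 0.645 in the limma fit over all probe sets. The chloride channel gene Cftr read 3.5, 2.07 and 4.52 in knockout pools, against 0.79, 0.435 and 0.932 in wild-type pools. Its groups did not overlap in the other direction (0.56 ± 0.18, limma adjusted p = 0.671). Krt19, Krt7 and Cftr all lay under the filter, and every Cftr value lay under the 5.26 added before taking logs. Among tested probe sets, 13.4% had groups that did not overlap. Prom1 read 33.8, 76.1 and 23 in knockout pools, against 19.7, 27.4 and 28 in wild-type pools, and its 76.1 is the highest marker value behind the sum of knockout pool 2. The part of bile duct cells in the Cdh1 values was not tested.

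**Figure D2:**
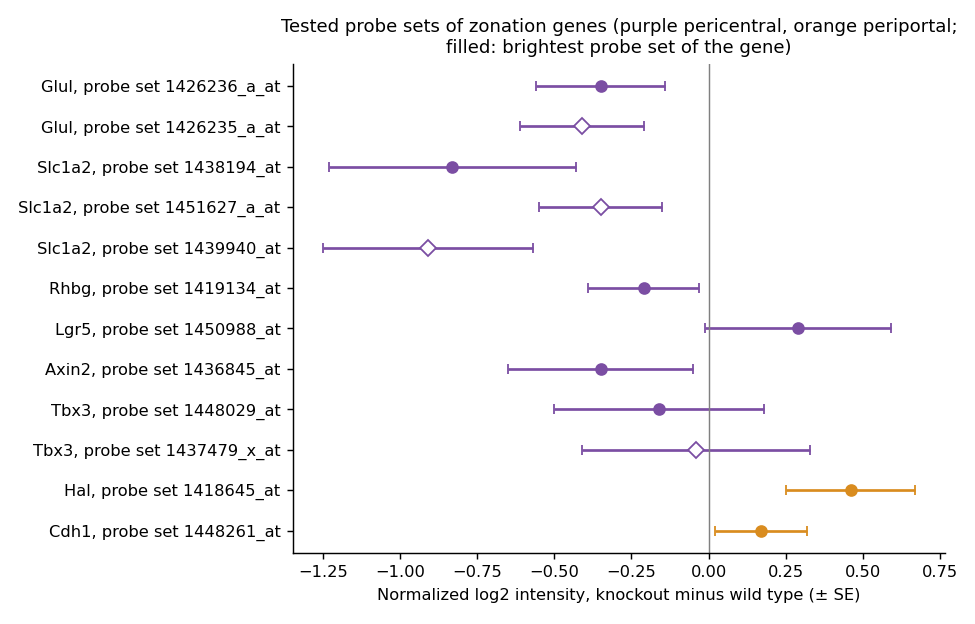
Difference in normalized log2 intensity, knockout minus wild type, with its SE for the 12 tested probe sets (n = 3 per genotype). Pericentral genes are purple and periportal genes orange, and filled points mark the brightest probe set of a gene. Differences run from -0.91 at a dimmer Slc1a2 probe set to 0.46 at Hal.

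The pools of both genotypes differed among themselves in the values of zone genes. Each gene's normalized log2 values were centred on its mean over the 6 arrays, for the members and for further zone genes tested, 23 pericentral and 21 periportal genes in all. This view was chosen after the values were seen and carries no test. In knockout pool 2 the median pericentral gene was at -0.23 and the median periportal gene at 0.19. In knockout pools 1 and 3 the pericentral medians were 0.08 and -0.03 and the periportal medians 0.09 and -0.10. In wild-type pools 1, 2 and 3 the pericentral medians were 0.05, 0.21 and -0.08 and the periportal medians -0.13, -0.11 and -0.01.

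Knockout pool 2 thus held the lowest value of the 6 arrays for 12 of 23 pericentral genes and the highest for 10 of 21 periportal genes. Over all 11102 genes it was lowest for 19.6% and highest for 23.5%. All 6 pericentral members were under their own means in this pool, and both periportal members were at their highest normalized value there. Wild-type pool 2 stood at the other end, with the highest value for 10 of 23 pericentral genes, where it was highest for 18.7% of all genes. Among genes picked after their values were seen, Cyp1a2, a pericentral cytochrome P450, read 4320, 3120 and 5200 in knockout pools, against 5100, 4140 and 5320 in wild-type pools. Nr1i3, encoding the receptor CAR, read 319, 209 and 423 in knockout pools, against 629, 414 and 392 in wild-type pools. Not all pericentral genes followed, since Oat, encoding ornithine aminotransferase, was highest in knockout pool 2 at 5230, with 2540 and 3630 in the other knockout pools, against 4010, 3750 and 3520 in wild-type pools. On the periportal side, Agxt, encoding a peroxisomal transaminase, followed, at 2280, 3930 and 2750 in knockout pools, against 2630, 2020 and 2320 in wild-type pools. Not all periportal genes followed either. Knockout pool 2 was the lowest of the 6 arrays for 2 of the 21, Apoa4 and G6pc, at -0.87 and -0.37 from their own means. Hepatocyte markers summed to 64900 in knockout pool 2, inside the wild-type range of 64500 to 67900, and endothelial markers to 2010, inside 1800 to 2620. Bile duct markers, at 163 in this pool, lay above the wild-type range of 98.9 to 150. Kidney markers, at 8.5, lay under that of 22 to 36.3, but so did every knockout pool (8.5 to 21.9). No kidney marker was bright enough to pass the filter. The part of these cells in the pool's zone values was not tested.

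**Figure D3:**
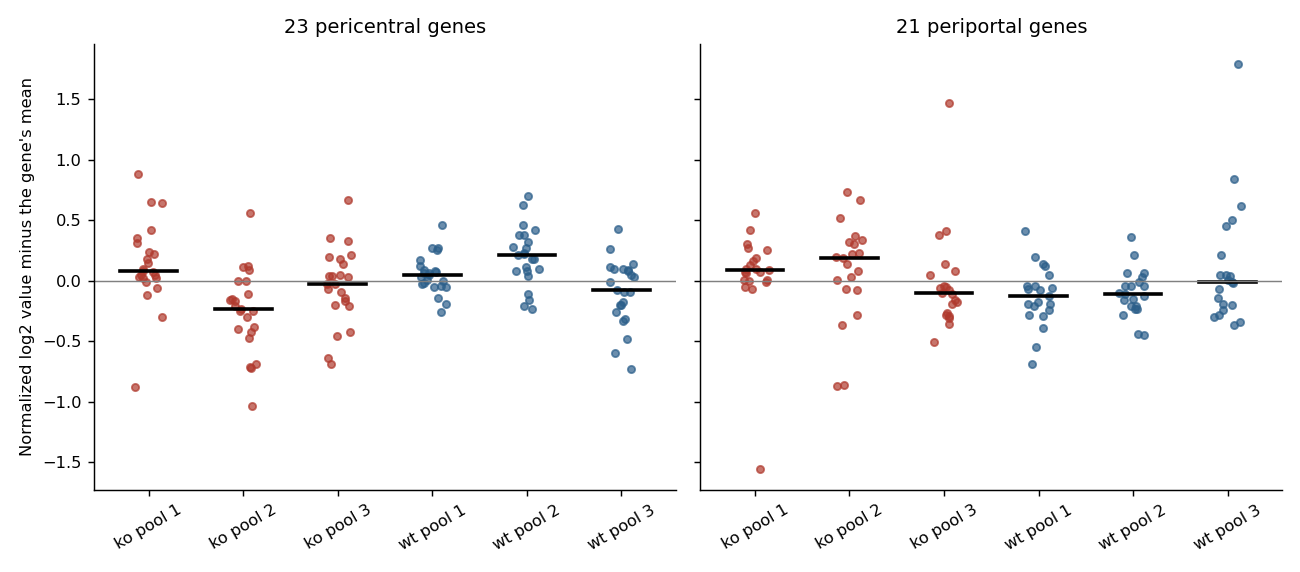
Normalized log2 value minus the gene's mean over 6 arrays (vertical axis) for 23 pericentral genes, left, and 21 periportal genes, right, in each knockout pool (red) and wild-type pool (blue). Points are genes and lines medians. Knockout pool 2 has the lowest pericentral median, -0.23, and the highest periportal one, 0.19.

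Leaving out single pools shows how far each member rests on them. The Rhbg difference ranged from -0.37 without knockout pool 1 to -0.05 without knockout pool 3. The Glul difference moved to -0.09 without knockout pool 2 and to -0.53 without knockout pool 3. The Axin2 difference ranged from -0.62 without knockout pool 1 to -0.09 without wild-type pool 2, and that of Lgr5 from 0.04 without knockout pool 1 to 0.57 without knockout pool 2. Over all members, settings and omissions, 1 of 119 refitted differences passed, the Slc1a2 difference without knockout pool 3. In that refit 18 of 11134 genes passed over the whole table, and the pool left out was the knockout pool that disagreed at Slc1a2.

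**Figure D4:**
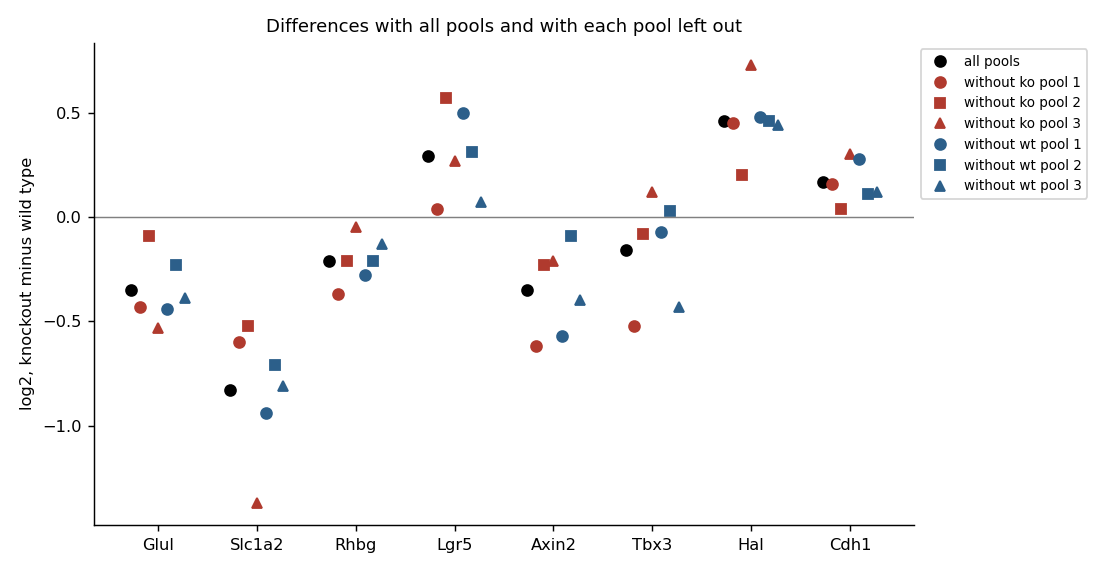
Log2 difference, knockout minus wild type, at the brightest probe set of each zonation gene with all pools (black) and with 1 knockout (red) or wild-type (blue) pool left out. The Slc1a2 value reaches -1.37 without knockout pool 3, and the Tbx3 value changes sign for 2 of the 6 omissions.

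Further genes of the same zones were described from lists. Of 17 tested pericentral genes beside the members, 7 were higher and 10 lower, 0 passed by limma, and 1 in each direction had an unadjusted p under 0.05. The list median was -0.08, beside 0.01 over all genes, and 0.01 without knockout pool 2. The tight junction gene Cldn2 read 761, 818 and 1040 in knockout pools, against 1280, 972 and 1190 in wild-type pools, a log2 difference of -0.24 ± 0.09 (adjusted p = 0.600). The retinal dehydrogenase gene Aldh1a1 was at -0.24 ± 0.11, and the aromatic amino acid transporter gene Slc16a10 was at 0.37 ± 0.11 (adjusted p = 0.520). The groups of these 3 of 17 genes did not overlap, where 13.9% of all genes did not. Without knockout pool 2, Aldh1a1 was at -0.11. The ethanol-oxidising cytochrome gene Cyp2e1, chosen after its values were seen, was at -0.05 ± 0.08.

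Of 19 tested periportal genes beside the members, 12 were higher and 7 lower, and 0 passed by limma. An unadjusted p under 0.05 was reached by 5, all higher, where 4.07% of all genes reached it in that direction. That count was unstable: it was 4 higher and 3 lower without knockout pool 1, 3 higher without knockout pool 2, 2 higher with no intensity trend, 3 higher and 1 lower with the mean of probe sets, and 6 higher and 2 lower with the replicate block. Groups did not overlap for 5 of the 19, all higher in the knockout, against 7.38% of all genes in that direction. The list median was 0.06, and 0.02 without knockout pool 2. Leaving out wild-type pool 1 gave 9 genes higher, 10 lower and a median of 0.00. With arrays centred on their medians, 3 of the 19 reached that p, and over all genes 273 higher and 601 lower did, in place of 452 and 461. Hsd17b6, encoding a hydroxysteroid dehydrogenase, came nearest to the threshold. It read 1340, 1710 and 2120 in knockout pools, against 1490, 890 and 1360 in wild-type pools, and its log2 difference was 0.63 ± 0.10 (adjusted p = 0.0953). Gldc, encoding the glycine decarboxylase of the glycine cleavage system, was at 0.38 ± 0.10 (adjusted p = 0.427), and the lipid droplet gene Hsd17b13 was at 0.22 ± 0.08 (adjusted p = 0.567).

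The Wnt pathway itself showed no called gene at any level. Of 10 ligands, R-spondins and secretion genes, 6 were tested, 1 higher and 5 lower, with a median of -0.09 and 0 at an unadjusted p under 0.05. Wnt2, made by liver endothelium, read 54.7, 28.4 and 72.2 in knockout pools, against 90.9, 55 and 67.3 in wild-type pools, a log2 difference of -0.35 ± 0.27, which was -0.02 without knockout pool 2. Wnt4 was at -0.27 ± 0.39, or 0.05 without knockout pool 3, and Porcn, encoding the acyltransferase that Wnt proteins need for secretion, was at 0.29 ± 0.19. Rspo3, the R-spondin of the central vein and chosen after its values were seen, read 56.9, 53.3 and 80.3 in knockout pools, against 73.1, 56.4 and 93.3 in wild-type pools, a difference of -0.08 ± 0.17.

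Of 11 tested Wnt receptor genes, 7 were higher and 4 lower, and the median was 0.07. The co-receptor gene Lrp6 was at 0.29 ± 0.11 (limma adjusted p = 0.607). It was the single gene of this list with an unadjusted p under 0.05, where 8.22% of all genes reached that value. It was also the 1 of 11 whose groups did not overlap, where 13.9% of all genes did not. Ror1 was at 0.36 ± 0.21 and Fzd7 at -0.39 ± 0.25. Among 10 tested genes of beta-catenin and its destruction complex, 7 were higher and 3 lower, and the median was 0.04. Ctnnb1, encoding beta-catenin, read 2850, 3130 and 3490 in knockout pools, against 3670, 2720 and 3470 in wild-type pools. Its log2 difference was 0.07 ± 0.07 with a 95% interval from -0.09 to 0.22, and after normalization its groups missed overlap by less than 2 decimals show (adjusted p = 0.857). The kinase gene Csnk1a1 was at 0.07 ± 0.08 and Dvl2, encoding a Dishevelled protein, at 0.29 ± 0.21.

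Of 5 tested TCF factors and coactivators, 2 were higher and 3 lower. Their median was -0.05, and 0.07 without knockout pool 2. Bcl9l, encoding a beta-catenin coactivator, was at -0.39 ± 0.16 (adjusted p = 0.630), Tcf7l1 at 0.38 ± 0.17 and Pygo2 at 0.09 ± 0.12. Of 8 tested Wnt inhibitors and feedback targets, 4 were higher and 4 lower. Their median of -0.05 changed sign with the filter and with single pools. Sfrp5, encoding a secreted Wnt antagonist, was at -0.60 ± 0.42, or -0.08 without knockout pool 1. Apcdd1 was at -0.33 ± 0.30, or -0.02 without knockout pool 2, and Kremen1 at 0.21 ± 0.17, or 0.07 without wild-type pool 1. Of 5 other Wnt target genes tested, 3 were higher and 2 lower. The cyclin D1 gene Ccnd1 read 260, 328 and 215 in knockout pools, against 199, 125 and 261 in wild-type pools, a difference of 0.65 ± 0.23 (adjusted p = 0.594). Id2 was at 0.43 ± 0.22, and Myc was at 0.30 ± 0.44, or -0.05 without knockout pool 3.

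Metabolic and adhesion partners of the members were also examined. Of 14 tested genes that handle glutamine, ammonium, histidine and serine, 10 were higher and 4 lower, and 0 passed. Their median was 0.12. Amdhd1, encoding a later enzyme of the histidine pathway that Hal opens, read 1500, 2060 and 1680 in knockout pools, against 1840, 1240 and 1710 in wild-type pools, a difference of 0.29 ± 0.13 (adjusted p = 0.661). Like Hal, it was brightest in knockout pool 2. The amino acid transporter genes Slc38a4 and Slc1a4 were at 0.27 ± 0.11 and 0.33 ± 0.16. Their groups did not overlap, which held for 2 of the 14 genes and for 13.9% of all genes. Without knockout pool 2, Amdhd1 and Slc38a4 were both at 0.15. Of 13 tested junction genes beside Cdh1, 9 were higher and 4 lower, and 0 passed. Their median was 0.13. Tjp1, encoding the tight junction scaffold ZO-1, was at 0.26 ± 0.09 (adjusted p = 0.569), the plakoglobin gene Jup at 0.21 ± 0.15 and Nectin3 at 0.13 ± 0.10. The junction median was 0.00 without knockout pool 2 and also when a gene's probe sets were averaged.

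**Figure D5:**
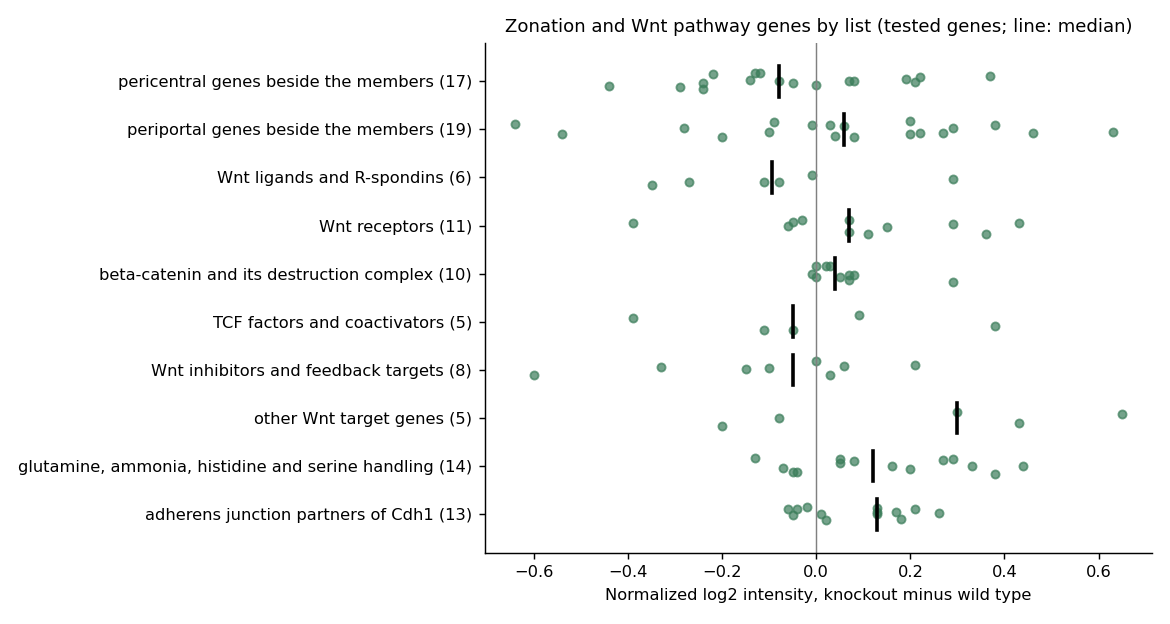
Difference in normalized log2 intensity, knockout minus wild type, for the tested genes of each list (points) and their median (line). Numbers in parentheses give the genes tested, and list medians lie between -0.09 and 0.30.

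The genes whose profile over the 6 arrays was closest to that of Glul were Ccdc166, Slc35g1 and H2ax. Their centred log2 values lay within a root mean square distance of 0.04, 0.06 and 0.07 of those of Glul. Slc35g1 read 126, 85.2 and 186 in knockout pools, against 163, 162 and 176 in wild-type pools, with knockout pool 2 the lowest. None of these 3 differed between genotypes past the threshold, their limma adjusted p-values running from 0.721 to 0.846. Picked for closeness to Glul, which stood at 0.745 itself, they carry no separate evidence.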

How the data were processed

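Per the labels, total liver RNA was biotin-labelled and hybridised to arrays. The values are linear probe set intensities as deposited by the authors, from 0.0174 to 16555; the software was GCOS 1.4 per the submitters' processing notes, with its algorithm and scaling left unstated in them. Probe sets took names from the platform annotation, with symbols updated through Entrez identifiers for 34741 of them and a table of assembly GRCm38.p6; 34945 had 1 gene, 932 several and 9160 none here. After 64 control probe sets were set aside, log2(intensity + 5.26), with the 25th percentile added to each value, was quantile normalized. The 22519 probe sets at or above the median mean log2 value of 4.48 entered a two-sided limma fit (version 3.58.1 under R 4.3.3, variances moderated along mean intensity), and p-values were adjusted by Benjamini-Hochberg across this whole set at 0.05. Each gene was read at the brightest tested probe set that names it alone. Members under the filter were read from the same fit without it, as were the limma values given for single cell type markers. A fold change on this scale understates dim probe sets, and no limit of detection is known, detection calls not being used here. The number of arrays, 3 per genotype, limits precision. The limma p-values set each difference against the spread between pools, moderated along mean intensity, and not against the spread between animals. The procedure was tested on simulated data.

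Named genes were the members, Nfe2l2, up to 3 genes of each list with the smallest p, and the 3 genes closest to Glul in root mean square distance; others are said to have been chosen after their values were seen. The members and lists were chosen with earlier results of these data known. Marker lists covered hepatocytes, bile duct, endothelial, stellate, Kupffer cells, lymphocytes, pancreas and kidney. Of their tested genes 0 passed. All 7 stellate and fibroblast markers had higher normalized means in the knockout (median log2 difference 0.22). Among them Des, chosen after its values were seen, was at 1.00 ± 0.33 (adjusted p = 0.671 in the limma fit over all probe sets). Its groups did not overlap, where 13.9% of all genes did not. The part of these markers in the zone values was not tested. Summed intensities in knockout and wild-type pools were 2980 to 3880 and 2440 to 3700 for stellate and fibroblast, 3670 to 4070 and 3230 to 5210 for Kupffer and macrophage, 253 to 396 and 235 to 396 for lymphocyte, 710 to 1330 and 603 to 1090 for pancreas, and 8.50 to 21.9 and 22 to 36.3 for kidney markers. Alternatives were median centring, pseudocounts of 1.31 and 21, no filter or one at the 70th percentile, no trend, array weights, the mean of probe sets, the replicate number as a block and each pool left out.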

Additional observations from a re-analysis of the deposited data

How the results depend on the processing

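No member passed in any of the 9 settings that kept all pools, and 116 of the 119 refitted member differences kept their direction and their side of the threshold; Axin2 fell out of the table under the stricter filter. The exceptions were Slc1a2 without knockout pool 3 (-1.37, adjusted p = 0.0334) and Tbx3 without knockout pool 3 (0.12) or wild-type pool 2 (0.03), within -0.52 to 0.12 over single omissions. The count of members called was thus 0 to 1 when single pools were left out. Of 439 refitted differences of the 30 named list genes, 436 kept both, and Wnt4 (0.05, range -0.64 to 0.05) and Myc (-0.05, range -0.05 to 0.86) changed sign without knockout pool 3 and Nectin3 (-0.09) with the mean of probe sets. The labels do not say that replicate numbers pair pools, so the numbers were not taken as pairing in the main fit. Deviations of same-numbered pools correlated across probe sets at 0.13, 0.05 and 0.25. For numbers 1 and 3 this was the highest correlation of each pool with the other genotype. Knockout pool 2 instead correlated best with wild-type pool 1 (0.10). With the replicate number as a block, Glul was at -0.35 (adjusted p = 0.676) and Slc1a2 at -0.83 (adjusted p = 0.535), and 20 genes and 32 probe sets passed over the whole table, none of them a member. The 32 probe sets called over the whole table numbered 20 when dim ones were kept, 19 under a stricter filter (70th percentile) and 18 when the trend was dropped, which left 9 genes in place of 16. Leaving out pools gave 18 to 29 probe sets and 12 to 18 genes; the lowest probe set counts were 18 without wild-type pool 2 and 19 without knockout pool 1 or 2. The cause of these shifts was not tested. The median of Wnt inhibitors was 0.03 with no filter, 0.06 with the higher filter and 0.11 without knockout pool 3, and that of other Wnt targets -0.08 with no filter. The glutamine and ammonium list moved to 0.26 without knockout pool 3. Median centring moved the median of all genes from 0.01 to -0.03. The counts for knockout pool 2 were redone in alternatives added after seeing the data. With arrays centred on their medians, this pool was lowest for 10 of 23 pericentral genes and highest for 10 of 21 periportal genes. Over all genes it was then lowest for 19.9% and highest for 21.1%.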
